A study of Mus musculus with 2 samples.

Results

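Cytosolic ribosomal proteins are the proteins that, with ribosomal RNA, build the large and small subunits of the ribosome outside mitochondria. Their genes were taken as the protein-coding RefSeq loci of mouse build GRCm38 whose symbols name a ribosomal protein (Rpl or Rps with a number, Rplp0 to Rplp2, and Rpsa), together with the paralogs Rpl7l1 and Rpl22l1. Of 78 such loci, 65 held at least 1 UPF1 cluster, a stretch of RNA in which immunoprecipitate reads piled up, out of 10015 genes with a cluster in all. These 65 were 41 large subunit genes, 23 small subunit genes and the paralog Rpl7l1. They held 245 of the 123349 clusters in the data set. The share of all protein-coding loci with a cluster was not worked out. Among the 17492 protein-coding genes with an entry in the RefSeq promoter table, 7803 genes other than these had a cluster. The 13 loci without a cluster were the large subunit genes Rpl19, Rpl27, Rpl28, Rpl29 and Rpl35, the small subunit genes Rps10, Rps13, Rps16, Rps21, Rps27, Rps27a and Rps4x, and the paralog Rpl22l1. An absent cluster says that none was listed, not that the RNA was unbound.

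The study mapped RNA bound by UPF1 with enhanced crosslinking and immunoprecipitation (eCLIP), in which protein is crosslinked to RNA, pulled down with an antibody, and the attached fragments are sequenced beside an input library that skipped the pull-down. The cells were cultured neural progenitors from mouse cortex of genotype Upf2fl/fl, a floxed allele of Upf2, the partner of UPF1 in nonsense-mediated decay. There was 1 UPF1 immunoprecipitate and 1 input, both labelled MOCK, a word that the labels do not explain, and both of the same genotype. With 1 library in each group nothing measures the spread between cultures, so no difference below has a replicate check. Intervals of folds and of pooled ratios cover counting error only. Intervals of shares and of medians treat genes or clusters as independent draws, although the genes are a fixed set and clusters are nested in genes.

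Ribosomal protein messenger RNAs are among the most abundant and most stable in growing cells. They are short, and most begin with a run of pyrimidines, the terminal oligopyrimidine (TOP) tract, through which growth signals switch their translation on and off together. Many of the genes also carry a small nucleolar RNA (snoRNA) inside an intron, which is cut out and guides the modification of ribosomal RNA. UPF1 is an RNA helicase that binds messenger RNA broadly, is displaced from coding sequence by translating ribosomes and tends to be found on 3′ untranslated regions, and it triggers the decay of transcripts whose translation ends too early.

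Pyrimidine runs were visible around the annotated starts of many of these genes. Stretches of 30 bases are shown for the only genes with an enriched cluster, Rpl22 and Rpl7l1, and for 4 of the genes with the most clusters, with the longest unbroken run of C and T between 50 bases before and 50 bases after the annotated start in capitals (RefSeq, GRCm38.p6, 5′ to 3′ on the gene's strand).
Rpl22, chr4:152325679-152325708, plus strand: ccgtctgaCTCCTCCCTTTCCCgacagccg
Rpl7l1, chr17:46782671-46782700, minus strand: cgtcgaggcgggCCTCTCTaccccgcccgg
Rps3, chr7:99483739-99483768, minus strand: cgcaaaacttcaTTTCCCatgcaaaacttc
Rpl13a, chr7:45128722-45128751, minus strand: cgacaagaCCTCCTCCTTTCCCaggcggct
Rpl5, chr5:107900497-107900526, plus strand: gcctacagccaCTCTTTCTCacgtcgcttg
Rpl4, chr9:64173405-64173434, plus strand: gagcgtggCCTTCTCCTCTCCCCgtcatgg

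The run was 14 bases long in Rpl22 and Rpl13a, 15 in Rpl4 and 9 in Rpl5, against 7 in Rpl7l1 and 6 in Rps3. With the annotated start as position 0, it began at -39 in Rpl22 and at 2 in Rpl13a, and an annotated start need not be the first base of the transcript. Nor need it be the outer end of the locus, since the Rpl22 stretch lies inside its locus, which begins at 152324436. A promoter sequence was matched for 47 of the 65 genes. The median longest run was 11 bases in their windows and 7 in the windows of all protein-coding genes. The runs marked in Rpl7l1 and Rps3 were no longer than that background median. A run of at least 8 bases, each C or T on the gene's strand, was found in 40 of these 47 windows, 85.1% (Wilson 95% interval 72.3 to 92.6). The same run was found in 39.2% of the windows of all protein-coding genes with a promoter entry (6862 of 17492) and in 36.9% of those of other protein-coding genes with a UPF1 cluster (2878 of 7803). On the opposite strand, where it appears as a run of A and G, it was found in 12 of the 47 windows (25.5%), against 40.3% of all protein-coding windows. These windows describe the genes and were not tested against the binding.

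UPF1 was rarely enriched on ribosomal protein RNA. A cluster counted as enriched when its log2 fold of immunoprecipitate over input and its −log10 p, as the authors deposited them, both reached 3. Only Rpl22 and Rpl7l1 had one, 2 of 65 genes or 3.08% (Wilson 95% interval 0.848 to 10.5), whereas 33.1% of all 10015 genes with a cluster had one. Among the 2115 other protein-coding genes whose loci were no longer than that of the longest ribosomal protein gene, the share was 27.5%. With a log2 fold of 2 as the threshold the same count of 2 stood against 35.1% of all genes. Of single clusters, 13 of 245 were enriched (5.31%, 3.13 to 8.87), against 11.6% of all clusters. The libraries came from bulk cultures, so how the bound RNA was spread over cells cannot be told from these values.

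In most ribosomal protein genes the highest fold was a point value slightly above input. The counting interval of that highest cluster lay wholly above 0 in 9 of the 65 genes, among them Rpl23a, whose strand was not resolved. The same share over all genes with a cluster was not worked out, so this count has no background beside it. The median over the 65 genes of the highest log2 fold in the gene was 0.98 (quartiles -0.02 and 1.56, order-statistic 95% interval of the median 0.56 to 1.30). The same median was 2.44 over all genes with a cluster (quartiles 1.30 and 3.93) and 2.15 over the short protein-coding genes. Those short genes also held a median of 3 clusters, so the maximum was taken over a like number. Their loci were matched less closely in length. The limit was the longest ribosomal protein gene, 11774 nt, beside a median of 3183 nt, and the median of the short genes was not worked out. The highest fold was at or below 0 in 17 ribosomal protein genes, between 0 and 2 in 38, and above 2 in 10 (15.4%), a level passed by 58.7% of all genes. The share at or below 0 over all genes was not worked out, but their lower quartile was 1.30.

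**Figure D1:**
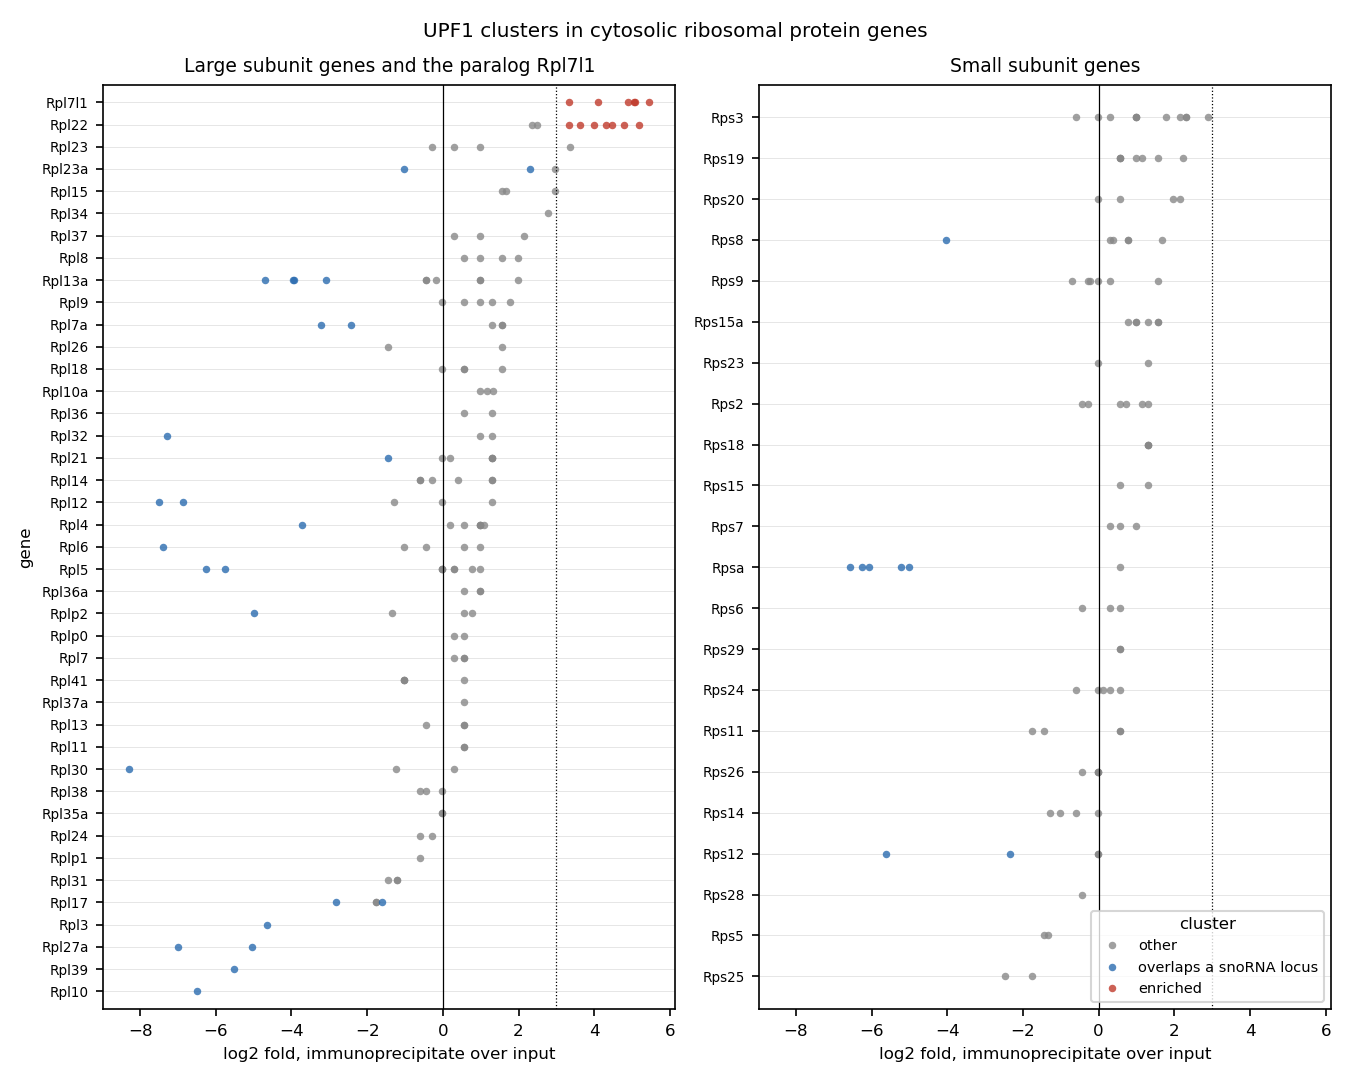
Each point is 1 UPF1 cluster, placed by its log2 fold of immunoprecipitate over input (horizontal axis) in its gene (vertical axis, ordered by highest fold), for large subunit genes with the paralog Rpl7l1 (left) and small subunit genes (right). The solid line marks a log2 fold of 0 and the dotted line 3; only Rpl7l1 and Rpl22 hold enriched clusters (red), and clusters over snoRNA loci (blue) make up the far left of both panels.

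Rpl7l1 encodes a protein related to Rpl7 that acts in the assembly of the large subunit. Its locus lies at chromosome 17, 46773907 to 46782656, on the minus strand. All 6 of its clusters were enriched, with log2 folds of 3.33, 4.11, 4.90, 5.06, 5.08 and 5.46. The read counts behind the deposited values could be worked out (see the account of the processing), and the highest of these folds stood for 447 immunoprecipitate reads against 5 input reads (exact 95% interval of the log2 fold 4.22 to 7.09, −log10 p 46.0). The 6 clusters covered 268 nt between 1010.5 and 1438 nt from the 3′ end of the locus, measured to their midpoints. Together they held 1317 immunoprecipitate and 21 input reads, a pooled log2 fold of 4.95 (4.33 to 5.64). Some of these clusters abut, so a read may be counted in neighbouring clusters and the pooled interval may be too narrow, which holds for the other pooled values below too. The lowest of the 6 stood above the highest cluster of every other ribosomal protein gene except Rpl22 and Rpl23.

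Rpl7, the ribosomal protein that Rpl7l1 resembles, had 3 clusters, with log2 folds of 0.30, 0.56 and 0.56. None held more than 5 immunoprecipitate reads, and the best of them was 3 reads against 1 (−3.08 to 6.27). Rpl7l1 and Rpl7 thus did not overlap in fold, although the counting interval of the Rpl7 cluster reaches past the highest Rpl7l1 value. The difference between the paralogs was not tested.

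Rpl22 is a large subunit protein that also binds RNA outside the ribosome, including that of its paralog Rpl22l1. Its locus lies at chromosome 4, 152324436 to 152334082, on the plus strand. It held 9 clusters, all above 0 and 7 of them enriched, with log2 folds of 2.37, 2.50, 3.33, 3.62, 3.99, 4.32, 4.47, 4.78 and 5.19. The highest stood for 148 immunoprecipitate reads against 2 input reads (3.31 to 8.24, −log10 p 22.5), and it was also the cluster nearest the 3′ end, 293.5 nt away. The other clusters reached back to 1525.5 nt from the 3′ end, and the 7 enriched ones covered 597 nt. All 9 together held 605 immunoprecipitate and 19 input reads, a pooled log2 fold of 3.97 (3.31 to 4.71). The paralog Rpl22l1 had no cluster to set beside these. The annotation used here gives the outer ends of each locus and no exons, so whether these clusters lie in an exon, an intron or a 3′ untranslated region was not analysed here.

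**Figure D2:**
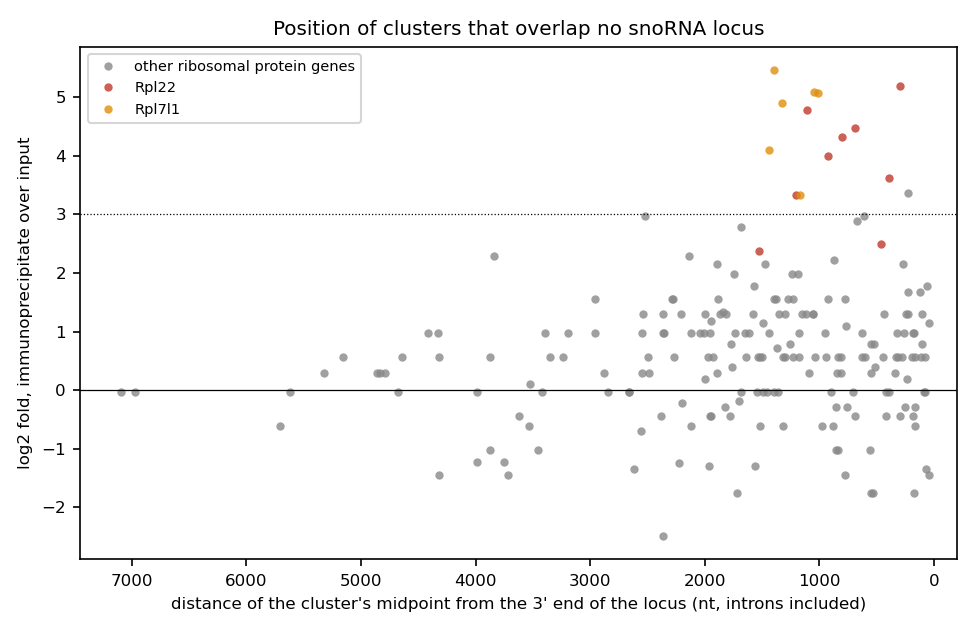
Each point is 1 cluster that overlaps no snoRNA locus, placed by the distance of its midpoint from the 3′ end of the locus in nt with introns included (horizontal axis, 3′ end at the right) and its log2 fold (vertical axis). The clusters of Rpl22 lie 293.5 to 1525.5 nt and those of Rpl7l1 1010.5 to 1438 nt from the 3′ end, and other genes have clusters at the same distances with folds mostly between -1 and 2.

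Among the other large subunit genes, Rpl23 came nearest to a call. Rpl23, which is also known to bind the p53 regulator MDM2, had clusters at log2 folds of -0.29, 0.30, 0.98 and 3.37. The last was 21 reads against 1 (0.73 to 8.74), lay 228.5 nt from the 3′ end and had a −log10 p of 2.59, just short of the threshold. Rpl15, a core protein of the large subunit, had clusters at 1.56, 1.68 and 2.98, the highest from 16 reads against 1 (0.29 to 8.37). The single cluster of Rpl34 was at 2.78, from 14 reads against 1 (0.07 to 8.19). The 3 clusters of Rpl37 were at 0.30, 0.98 and 2.15, with at most 9 immunoprecipitate reads. In these 4 genes the best point values were among the 10 highest of the ribosomal protein genes. They ran from 2.15 to 3.37, beside a median highest fold of 2.44 over all genes with a cluster. Each best cluster rested on 1 input read, and its interval spans several log2 units.

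Rpl23a also reached 2.98, from 16 reads against 1. Its clusters fell on both strands, its strand was not resolved, and the cluster at 2.98 and another at 2.30 lay on the opposite strand from its cluster at -1.02. Whether those reads come from Rpl23a or from RNA on the other strand was not settled, and the median highest fold over the ribosomal protein genes was 0.98 with or without it.

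Rpl5, Rpl4, Rpl10a, Rpl14 and Rpl21 had no log2 fold above 1.33. Rpl5, which carries a small ribosomal RNA into the large subunit, had 9 clusters, and the 7 outside snoRNA loci ran from -0.02 to 0.98. The one at 0.98, from 4 reads against 1, lay where the locus overlaps Dipk1a. Rpl4, whose protein lines part of the tunnel through which the new peptide leaves, had 6 clusters outside snoRNA loci, from 0.20 to 1.09. Its deepest cluster held 35 reads against 15, a log2 fold of 0.20 (-0.71 to 1.18), so here the precision was enough to place it far below 3. Rpl10a, another large subunit protein, had a cluster with 46 reads against 9, at 1.33 (0.28 to 2.55). Rpl14 had 6 clusters from -0.61 to 1.30, and Rpl21 had 5 outside snoRNA loci from -0.02 to 1.30.

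Small subunit genes had no enriched cluster, 0 of 23, which allows a share of up to 13.0%. Rps3, a protein at the entrance of the messenger RNA channel, had the most clusters of any ribosomal protein gene, 11, with 9 above 0. They ran from -0.61 to 2.88, and the highest was 15 reads against 1 (0.18 to 8.28, −log10 p 1.53). Rps19, the protein most often mutated in the inherited anaemia Diamond-Blackfan, had 7 clusters, all above 0, from 0.56 to 2.22. Its highest stood for 19 reads against 2 (0.17 to 5.37). Rps20 had clusters at -0.02, 0.56, 1.98 and 2.15, and Rps15a had 6, all between 0.78 and 1.56.

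Other small subunit genes stayed near or below input. Rps24 held a cluster with 22 reads against 10, at a log2 fold of 0.11 (-1.02 to 1.36), and its 5 clusters ran from -0.61 to 0.56. Rps25, a small subunit protein known for its part in translation from internal entry sites, had 2 clusters, at -2.48 and -1.76. The lower of these came from a ratio of 4 reads to 11 (-4.59 to -0.73) and overlapped no snoRNA locus, and it was the lowest of all 211 clusters outside such loci.

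The median highest log2 fold was 0.98 in both subunits, with quartiles of -0.02 and 1.56 for the 41 large subunit genes and 0.27 and 1.43 for the 23 small subunit genes. The highest fold was at or below 0 in 11 of 41 large and 6 of 23 small subunit genes. Clusters above 0 were 57.2% of the 145 in large subunit genes (49.1 to 65.0) and 59.6% of the 94 in small subunit genes (49.5 to 68.9). The subunits differed in how many clusters lay over a snoRNA: 26 of 145 (17.9%, 12.5 to 25.0) in 17 large subunit genes, against 8 of 94 (8.51%, 4.38 to 15.9) in 3 small subunit genes. Outside snoRNA loci the medians were 1.19 and 0.98, and 68.9% and 65.1% of clusters were above 0. Genes of 1 subunit are not replicates of each other, so these differences have no test.

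The lowest folds of these genes lay where they host snoRNAs. In 20 of the 65 genes, 34 clusters (13.9%) overlapped a snoRNA locus, with a median log2 fold of -5.02 and a range from -8.28 to 2.30. Only 1 was above 0, the Rpl23a cluster at 2.30, which overlapped Snord42a by 9 nt. Overlap with a snoRNA locus was counted on either strand, and this cluster lay on the opposite strand from the Rpl23a cluster over Snord42b. Whether its reads come from the snoRNA was not settled. All 27 of the ribosomal protein gene clusters at or below -3 were among these 34. They made up 11.0% of the 245 clusters, while 0.468% of all clusters in the data set lay at or below -3. The deposited −log10 p is 0 for every cluster at or below 0, so low folds carry no test by the authors.

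The lowest cluster of all these genes was in Rpl30, at -8.28 (-9.91 to -7.05), over a snoRNA locus with only a provisional name. Its ratio was that of 5 immunoprecipitate to 766 input reads, taken as the smallest whole numbers that give the fold, as for every cluster at or below 0. The snoRNAs named Snora are of the class that directs pseudouridine formation. Their 9 clusters in 8 loci had a median of -6.86 (range -7.52 to -4.98) and a median of 449 input reads. Snora7a in Rpl32 was at -7.29 (10 against 769 reads) and Snora3 in Rpl27a at -6.99 (10 against 623). The 2 clusters over Snora65 in Rpl12 were at -7.51 and -6.86. Snora70 in Rpl10, whose protein joins the large subunit late in assembly, was at -6.49 (7 against 310) and Snora69 in Rpl39 at -5.52 (5 against 113).

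The snoRNAs named Snord, of the class that directs ribose methylation, had higher folds, still below input in the median. Their 11 clusters had a median of -3.93 (range -5.62 to 2.30) and a median of 15 input reads. Rpl13a, a large subunit protein, hosted 4 of them, with Snord33 at -4.70, Snord32a at -3.95, Snord35a at -3.93 and Snord34 at -3.08, while its 6 other clusters ran from -0.44 to 1.98. Snord83b in Rpl3, a protein near the site of peptide bond formation, was at -4.65 and Snord100 in Rps12 at -5.62. Rpsa, a small subunit protein also known as a laminin receptor, showed the contrast within 1 locus: 5 clusters over snoRNAs lay between -6.57 and -5.00, and the remaining one, where the locus overlaps Gm5922, was at 0.56 (12 reads against 4). Another 14 clusters over snoRNA loci with other names had a median of -5.48.

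The same pattern was present in other hosts. In 35 other protein-coding genes, 49 clusters over snoRNAs had a median log2 fold of -4.19, and 37 of them (75.5%, 61.9 to 85.4) were at or below -3, against 27 of 34 (79.4%, 63.2 to 89.7) in ribosomal protein genes. In 12 long non-coding host genes, 23 such clusters had a median of -4.83. Medians over Snora and Snord clusters of these other hosts were -5.77 and -2.75. Low folds over snoRNAs thus occurred in all 3 kinds of host. Ribosomal protein genes held 34 of all 109 clusters over snoRNAs (31.2%), and 0.0410% of the clusters of other protein-coding genes overlapped one. For 5 genes, among them Rpl10, Rpl27a, Rpl3 and Rpl39, every cluster lay over a snoRNA, so their highest folds carry no value for the remainder of the transcript.

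Outside snoRNA loci the ribosomal protein genes had many shallow clusters near input. The 211 such clusters, in 60 genes, had a median log2 fold of 0.56 (range -2.48 to 5.46), and 68.2% were above 0 (61.7 to 74.2), against 73.2% of all clusters in the data set. In the median they rested on 5 reads of immunoprecipitate, with quartiles of 3 and 8, and on 1 of input. Without Rpl22 and Rpl7l1, 164 of the remaining 196 lay between -1 and 2. The count of enriched clusters among the 196 was 0, since the only genes with one were left out (upper limit 1.53% if clusters were independent).

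**Figure D3:**
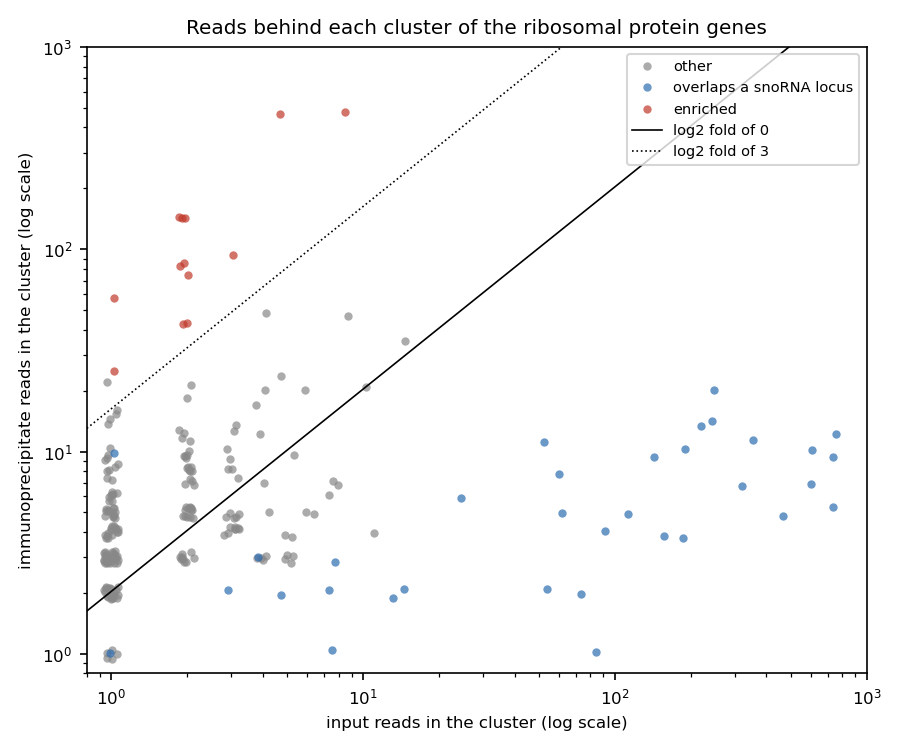
Each point is 1 cluster of a ribosomal protein gene, placed by its input reads (horizontal log axis) and immunoprecipitate reads (vertical log axis), with points shifted slightly so that equal values can be seen; reads at or below a log2 fold of 0 are the smallest whole numbers giving the fold. Enriched clusters (red) hold 25 to 485 immunoprecipitate reads over at most 8 input reads, snoRNA clusters (blue) reach 769 input reads, and most others (grey) hold fewer than 10 of either.

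A call needed more reads than most of these clusters held. Against 1 input read, the fewest a reconstructed count can have, 24 immunoprecipitate reads were needed for a call and 17 for the fold alone. Only 16 of the 211 clusters outside snoRNA loci (7.58%) had 24 or more, against 41.1% of the clusters of other protein-coding genes within 5000 nt of a 3′ end. For clusters at or below 0 these are the smallest possible counts. The 16 lay in 4 genes: 8 in Rpl22, 6 in Rpl7l1, and 1 each in Rpl10a and Rpl4, whose clusters are given above. Immunoprecipitate reads are part of the fold, so a low count of them is also part of the outcome, and depth and binding cannot be told apart from these counts.

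All 13 enriched clusters, those of Rpl22 and Rpl7l1, lay between 293.5 and 1438 nt from the 3′ end, a range that also held clusters of other ribosomal protein genes. Because the loci are short, with a median length of 3183 nt against 29235 nt for all protein-coding genes with a cluster, 239 of the 245 clusters lay within 5000 nt of the 3′ end. Of these 239, 13 were enriched (5.44%, 3.21 to 9.08), against 34.6% of the clusters of other protein-coding genes within the same distance, whose median log2 fold was 2.56. Along the locus, the median log2 fold outside snoRNA loci and without Rpl22 and Rpl7l1 was 0.30 in the 5′ part (60 clusters, 53.3% above 0), 0.56 in the middle part (53 clusters, 69.8%) and 0.56 in the 3′ part (83 clusters, 72.3%), for 3 parts of equal length. With the pair, all of whose clusters fell in the 3′ part, the median there was 0.98 over 98 clusters. The intervals of these shares overlap (40.9 to 65.4, 56.5 to 80.5 and 61.8 to 80.8).

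Most of the pooled signal came from the enriched pair. Over the 145 clusters above 0, immunoprecipitate reads exceeded input 5.33-fold after scaling for library size (exact 95% interval 4.70 to 6.06, from 2882 and 266 reads). Rpl22 and Rpl7l1 held 66.7% of those immunoprecipitate reads. Without them the ratio was 2.09 (1.80 to 2.43, from 960 and 226 reads). The ratio pools clusters already selected for a fold above 0, so its distance from 1 is not evidence of binding.

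Other genes for the translation machinery were set beside the same background, in which 33.1% of all genes with a cluster and 27.5% of the short protein-coding ones had an enriched cluster. Of the ribosomal protein genes that the symbol rule does not reach, 4 of 10 had a cluster and none of these had an enriched one. Among them Rpl36al was at 0.56, Fau, a fusion with a small subunit protein, at -0.29, and the scaffold Rack1 at -0.44. Among elongation factors and other known TOP messenger RNAs, 3 of 18 (16.7%) had an enriched cluster, and the median highest fold was 1.32. These were Eef2, the translocation factor, at 5.07, the histone chaperone Nap1l1 at 4.19 and the initiation factor Eif4b at 4.11. Eef1a1, the factor that delivers transfer RNA, had 10 clusters and a highest fold of 1.50, and Tpt1 was at -0.18. Ribosome biogenesis factors had an enriched cluster in 9 of 32 genes (28.1%), a share near the background, with a median of 1.78, led by nucleolin (Ncl) at 5.37, with 11 enriched clusters, and the polymerase I factor Rrn3 at 5.30, with 9.

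The shares in genes for other large complexes were below those 33.1% and 27.5%, that of the proteasome only slightly below the latter. Mitochondrial ribosomal protein genes had an enriched cluster in 7 of 49 genes (14.3%, 7.10 to 26.7) and a median highest fold of 1.56. Proteasome subunit genes had one in 6 of 24 (25.0%; median 1.30), and respiratory chain subunit genes in 7 of 53 (13.2%, 6.55 to 24.8; median 0.98). The median of the respiratory chain genes equals that of the ribosomal protein genes, and all 6 lists had medians below the 2.44 of all genes.

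**Figure D4:**
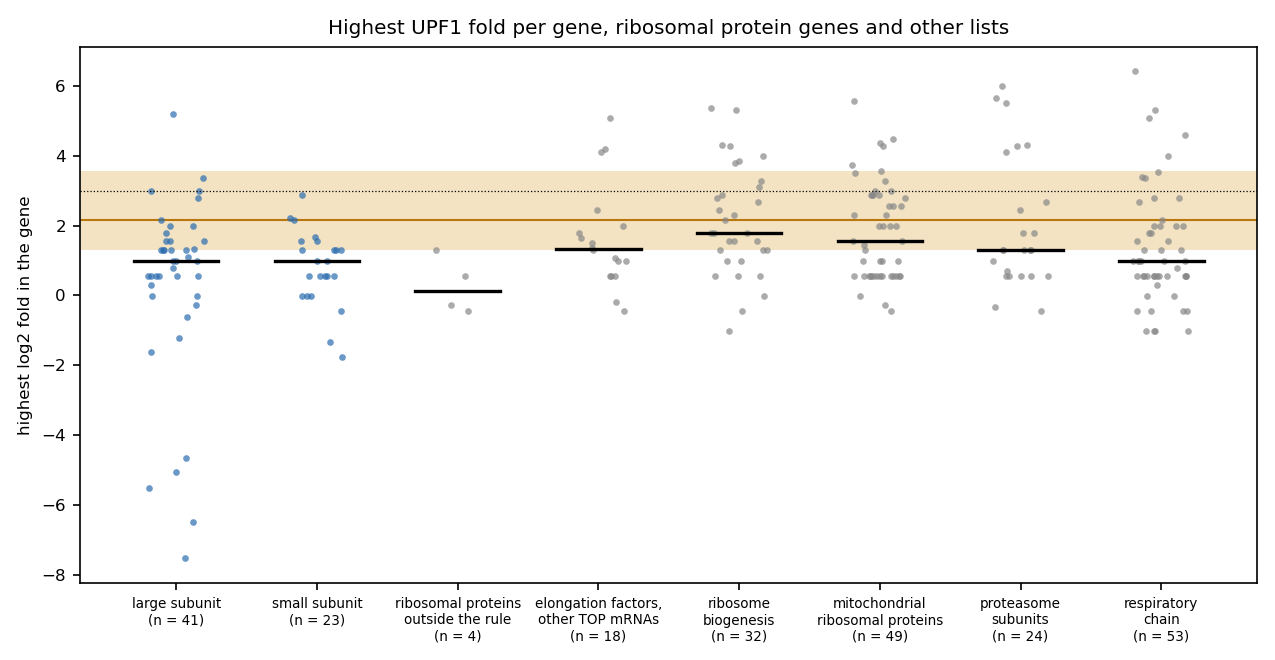
Each point is the highest log2 fold of 1 gene (vertical axis) in the list named on the horizontal axis, black bars are medians, and the orange line and band are the median (2.15) and quartiles of 2115 other protein-coding genes with short loci; the dotted line marks 3. Large and small subunit genes have the same median of 0.98, below the line, and the lowest large subunit genes are those with clusters over snoRNAs only.

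The labelled cell type could be checked only through which genes had clusters, since the file holds no expression level. All 10 neural progenitor markers had a cluster, as did 6 of 7 neuron, 5 of 5 astrocyte and 4 of 6 oligodendrocyte markers. None of 5 microglia and none of 2 blood markers had one, and 1 of 5 vessel and fibroblast markers did. Among the 17492 protein-coding genes with a promoter entry, 7803 genes other than the ribosomal protein genes had a cluster. Of markers with a cluster, 6 of 10 progenitor, 3 of 6 neuron, 5 of 5 astrocyte and 4 of 4 oligodendrocyte ones had an enriched cluster. The share over all genes with a cluster was 33.1%. These counts do not set progenitors apart from neurons, astrocytes or oligodendrocytes. The part of these other cell types in the values above was not tested.

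Ribosomal protein genes have many processed pseudogenes, and 51 of the 65 had at least 1 RefSeq pseudogene locus named after them, 316 loci in all. None of those 316 held a cluster. The share of all pseudogene loci with a cluster was not worked out, so that count has no background beside it. Reads that match a gene and its copies equally well can be dropped or placed on either, so the clusters of these genes may be undercounted where a copy is near-identical. How such reads were treated is not given in the sources used here, and single values for these 51 genes are uncertain to that extent.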

How the data were processed

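The authors deposited 1 table of stranded clusters, without a header. The log2 fold over input and the −log10 p in it, as the authors deposited them, were identified from their values. Per the submitters' processing notes, the tools included cutadapt, UMI-tools and STAR, on mm10. The sources used here give no caller, fold formula or filter, and library totals are unknown.

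With bedtools 2.31.1 and pandas 2.3.3, clusters were assigned to the RefSeq locus (GRCm38.p6) covering most of their bases. Strand came from the RefSeq promoter table for 47 of the 65 genes and from at least 80% of their clusters for 13. It was unresolved for 5, Rpl23a among them. Antisense clusters were left out where the strand was known.

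Reads were reconstructed from the steps of fold and p, taking the commonest fold (0.56) as 3 reads against 1, which puts the immunoprecipitate library at 2.03 times the input. Whole counts resulted for 90038 of 90350 clusters above 0 (99.7%; −log10 p within 0.05 or 1%) and all 145 in ribosomal protein genes. An input count of 1 may stand for none. At or below 0, the smallest counts giving the fold were used. The steps were tested on simulated data. Intervals (95%, scipy 1.17.1) are Clopper-Pearson for folds and Wilson for shares, and treat reads, clusters and genes as independent. Where a share is 0, the limit is 3 counts over the total.

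The genes and lists were chosen with earlier results of these data known. Genes named by rule were those with an enriched cluster, both paralogs with Rpl7 and Rpl22, the 10 highest, the 10 with the most clusters, the 6 lowest, the 5 with the deepest cluster, and those overlapping another locus. The values of a few genes are not reported here, and they are not drawn by name. Other snoRNA hosts and list members were named after their values were seen.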

Additional observations from a re-analysis of the deposited data

How the results depend on the processing

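The count of 2 genes with an enriched cluster was the same at a log2 fold of 2, at a −log10 p of 5, with only clusters in 1 locus, on either strand, and with clusters of 1 input read left uncalled. It was 3 with no p threshold, which adds Rpl23. Leaving out clusters over snoRNA loci, or Rpl23a, was added after seeing the data. The median highest log2 fold of 0.98 became 0.17 when each gene was given by its width-weighted mean. The share of clusters above 0, 59.2%, became 67.9% with only clusters in 1 locus and 68.2% without snoRNA clusters. Both alternatives remove snoRNA clusters. The large minus small subunit difference of 0 (Rpl7l1 counted as large) became -0.041 with width-weighted means, -0.066 with medians of a gene, 0.16 with genes of 3 or more clusters, and 0.32 with only clusters in 1 locus or without snoRNA clusters. Its sign therefore depends on the summary. Split at the middle of the locus, the 3′ side exceeded the 5′ side by 0.52 in median log2 fold. The difference was 0.81 between the outermost 20% at either end and 0.49 with only clusters in 1 locus or without snoRNA clusters. These differences include Rpl22 and Rpl7l1, whose clusters all lay on the 3′ side, and were not worked out without the pair. In the split into 3 parts, outside snoRNA loci and without the pair, the medians were 0.30, 0.56 and 0.56 from 5′ to 3′. The pooled ratio of 5.33 became 3.14 without the paralogs and 2.09 without Rpl7l1, Rpl22l1 and Rpl22. No paired analysis was possible because each group has 1 library. Depth limits the calls: the median cluster outside snoRNA loci held 5 immunoprecipitate reads and 1 input read, with the smallest possible counts used at or below 0.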
